A study of Oryza sativa with 24 samples.

Results

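The flavonoid synthesis genes were found by gene name: a probe set belonged to the group if its gene was called OsCHS1, CHS1, CHI, DFR, F3H, ANS or ANR in the array annotation or the reference gene table, with the prefix Os and a final number allowed. This gave 6 of the 57194 probe sets analysed. They stand for 2 of the 17905 genes represented, OsCHS1 (gene ID 4350636, 5 probe sets) and CHI (gene ID 4334588, 1 probe set). Another gene that the names cover, OsANS2, an anthocyanidin synthase gene, had no probe set, and no probe set carried the names DFR, F3H or ANR. OsCHS1 was singled out for description with its low level in leaf arrays labelled tZ 120 min already known, so its values in that group are given below as a description, with effect sizes and no p-value. It was also known that OsCHS1 dropped in no other group. Its tests in root and in the other leaf groups are therefore not independent evidence either.

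Flavonoids are plant phenolics that serve as pigments, ultraviolet screens and defence compounds. Phenylalanine ammonia-lyase (PAL) and 4-coumarate:CoA ligase (4CL) act in the general phenylpropanoid pathway, which delivers p-coumaroyl-CoA. Chalcone synthase, the enzyme OsCHS1 encodes, joins it to malonyl-CoA units in the first committed step of flavonoid synthesis, and chalcone isomerase, encoded by CHI, closes the ring to give a flavanone. Anthocyanidin synthase acts later, on the way to anthocyanins and proanthocyanidins, and lignin synthesis draws on the same p-coumaroyl-CoA.

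The series measured transcripts on 24 one-colour arrays of rice (Oryza sativa cultivar Nipponbare), 12 of root and 12 of leaf, in 8 groups of 3. Whole roots, or the third leaf, cut at the lamina joint, were taken from hydroponically grown 2-week-old seedlings and kept in water at 30 °C. The water held 0.1% dimethylsulfoxide (DMSO, the solvent) in every group, and in the tZ groups also 5 µM trans-zeatin (tZ), an active cytokinin. Organs were collected after 30 or 120 min, so every group shares excision, immersion and solvent, and none is an intact plant. Median signal ran from 68.2 to 86.7 in root arrays and from 47.6 to 57.0 in leaf arrays, and replicate arrays correlated at 0.960 to 0.982 on the log2 scale across probe sets.

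Organ was taken from the sample titles, because another label field gives root as the tissue of every sample. The values followed the titles: OsrbcS, the rubisco small subunit gene, read 19738 in leaf and 349 in root (DMSO 30 min means), and OsCASP1, of the Casparian strip protein family, read 15.9 in leaf and 2227 in root. The treatment and time labels met a conflict. Type-A response regulators are genes that cytokinin is known to induce within minutes, yet all 5 of the 5 checked (OsRR1, OsRR2, OsRR4, OsRR6 and OsRR9) had higher signals in each DMSO 120 min array than in each tZ 30 min array, going by the labels, in both organs. OsRR6 in leaf, for example, read 3811 to 4001 in the arrays labelled DMSO 120 min and 1977 to 2142 in those labelled tZ 30 min. Group names here are only labels, "tZ" standing for "labelled tZ", and the comparison of tZ 120 min with DMSO 30 min, which uses neither of those 2 groups, is given beside the main results. Were those 2 labels exchanged in an organ, the differences called tZ effects below would be differences between times.

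OsCHS1 was far lower in leaf tZ 120 min than in the other leaf groups, and lay near the root level there. The brightest of its probe sets read 968.9, 901.7 and 801.9 in the 3 arrays of leaf tZ 120 min (linear signal units). The arrays of leaf DMSO 120 min read 3233.2, 3039.7 and 3088.3. Those of leaf DMSO 30 min read 2955.3, 3241.5 and 2660.6. Leaf tZ 30 min, with 3824.9, 3382.1 and 3302.8, held the highest arrays of the series. All 9 arrays of the other leaf groups thus lay above all 3 of tZ 120 min, with no overlap.

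In root the same probe set stayed within a narrow range. The arrays read 427.3, 656.9 and 593.5 in DMSO 30 min and 645.6, 595.5 and 633.5 in tZ 30 min. They read 700.5, 658.3 and 810.2 in DMSO 120 min and 696.8, 636.8 and 755.0 in tZ 120 min. At each time the tZ and DMSO arrays of root overlapped. Ordered by mean ± SD (n = 3), the groups ran from leaf tZ 30 min (3503 ± 281), leaf DMSO 120 min (3120 ± 101) and leaf DMSO 30 min (2952 ± 290) down to leaf tZ 120 min (891 ± 84.0). Root DMSO 120 min (723 ± 78.4), root tZ 120 min (696 ± 59.1), root tZ 30 min (625 ± 26.1) and root DMSO 30 min (559 ± 119) followed. Neighbours in that order overlapped, apart from leaf tZ 30 min against leaf DMSO 120 min and leaf DMSO 30 min against leaf tZ 120 min.

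**Figure D1:**
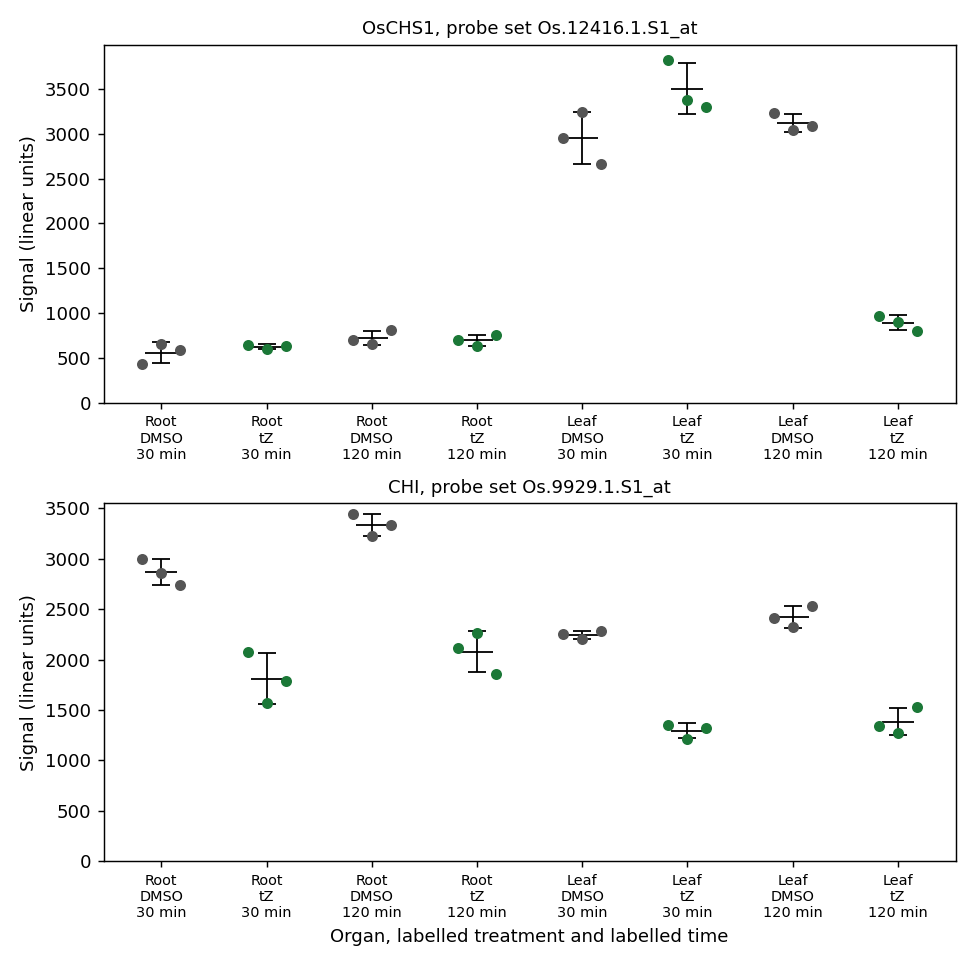
Signal of the bright OsCHS1 probe set (top) and of the CHI probe set (bottom) in each of the 24 arrays, by organ, labelled treatment and labelled time, on linear axes that start at 0. Grey points are DMSO arrays, green points tZ arrays, and the bars give mean ± SD of 3. OsCHS1 reads at least 2660.6 in the other leaf groups and at most 968.9 in leaf tZ 120 min, and CHI is lower in tZ than in DMSO in both organs and at both times.

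As differences on the log2(signal + 20) scale, leaf OsCHS1 in tZ 120 min lay at −1.79 (SE 0.082, 95% interval −1.96 to −1.62) against DMSO 120 min. Its mean signal was 28.5% of the DMSO mean. Against leaf tZ 30 min the difference was −1.95 (SE 0.082), and the mean was 25.4%. Against leaf DMSO 30 min it was −1.71 (SE 0.082), with a mean of 30.2%. A probe set is called where its Benjamini-Hochberg adjusted p, from limma across all probe sets tested, is under 0.05. The first of these comparisons called 43.4% of probe sets (21.4% lower), that of tZ 120 with tZ 30 min called 8.01% (4.21% lower), and that of tZ 120 with DMSO 30 min called 45.6% (22.2% lower).

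At 30 min leaf OsCHS1 was slightly higher in tZ, by 0.25 (SE 0.082, adjusted p = 0.0209), in a comparison that called 45.6% of probe sets. All 3 tZ arrays read above all 3 DMSO arrays. The call was lost without DMSO 30 min replicate 3 (0.17), without tZ 30 min replicate 1 (0.18), with arrays shifted to the same median (0.21), and at the same size of 0.25 when the fit had no intensity trend or held all 24 arrays. Leaf DMSO at 120 against 30 min differed by 0.083 (SE 0.082, adjusted p = 0.756), an interval of −0.091 to 0.26, where 1.4% of probe sets were called.

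The change of the leaf tZ effect from 30 to 120 min was, as a description, −2.04 (SE 0.12, 95% interval −2.28 to −1.79), in a comparison that called 3.83% of probe sets (1.8% lower). In root no OsCHS1 comparison passed the test, but that root showed no drop was known when the gene was chosen. The tZ effect was 0.18 (SE 0.14, adjusted p = 0.379) at 30 min and −0.051 (SE 0.14, adjusted p = 0.835) at 120 min, with 95% intervals of −0.12 to 0.47 and −0.35 to 0.25, and the sign of the second turned under both other scalings. Root tZ 120 min against DMSO 30 min gave 0.32 (SE 0.14, adjusted p = 0.0976). It passed with quantile normalization (0.44), in the fit of all 24 arrays (0.32) and without root DMSO 30 min replicate 2 (0.45). Root DMSO at 120 against 30 min gave 0.38 (SE 0.14, adjusted p = 0.138) and passed in the fit of all 24 arrays. These root comparisons called 33.7% (30 min), 30.3% (120 min), 29.4% (tZ 120 against DMSO 30 min) and 6.23% (DMSO times) of probe sets. Root tZ at 120 against 30 min gave 0.15 (adjusted p = 0.621; 6.74% called), and the change of the root tZ effect with time −0.23 (95% interval −0.65 to 0.19, adjusted p = 0.609; 4.6% called).

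**Figure D2:**
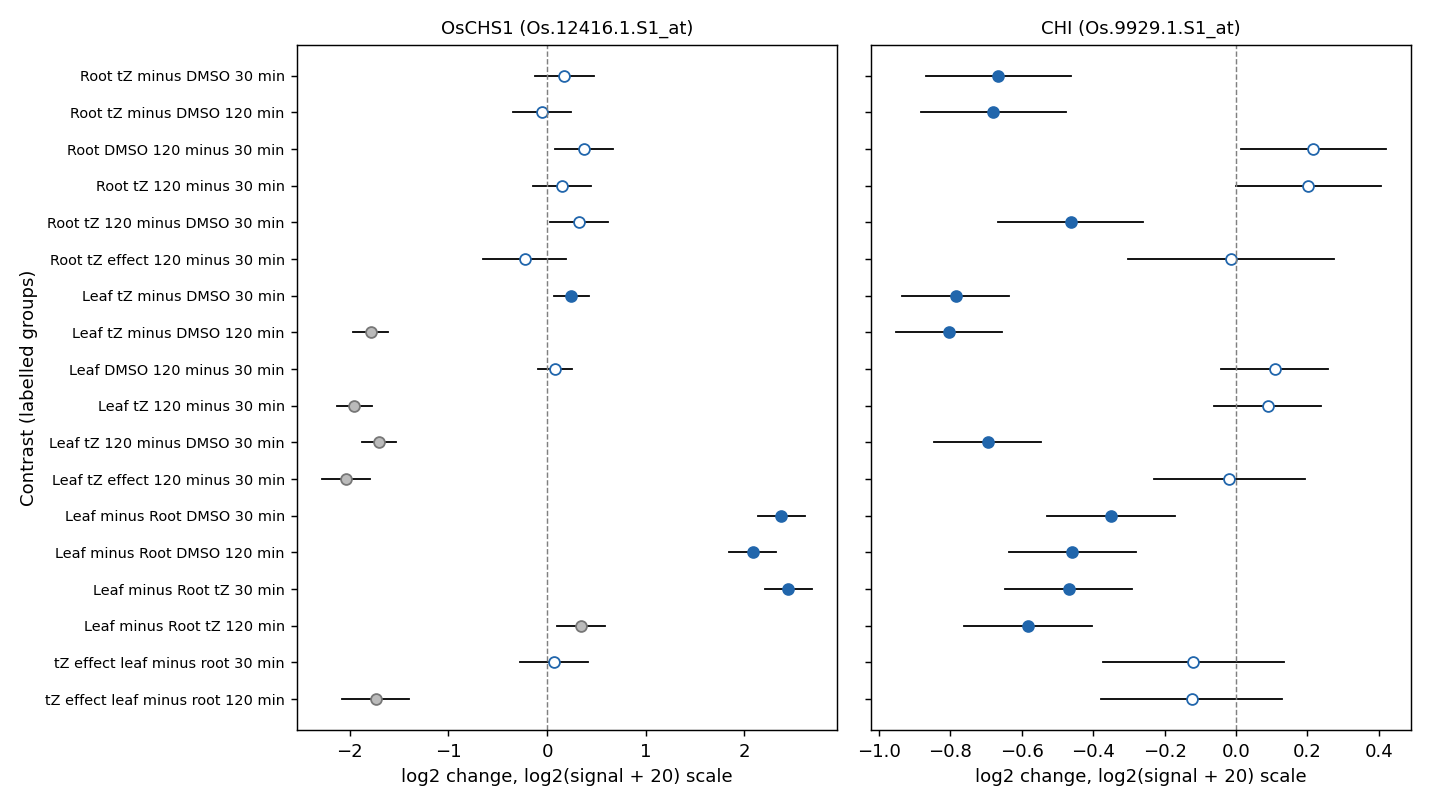
The 18 differences of the bright OsCHS1 probe set (left) and of CHI (right) on the log2(signal + 20) scale, with 95% intervals as lines; blue filled points have an adjusted p under 0.05, and grey points are the OsCHS1 differences that involve leaf tZ 120 min, given as a description. The x axes differ in range. For OsCHS1 the leaf comparisons with tZ 120 min lie between −2.04 and −1.71 and the root comparisons between −0.23 and 0.38, whereas the 4 tZ minus DMSO points of CHI lie between −0.80 and −0.66.

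By its bright probe set, OsCHS1 differed in level between the organs. Leaf was higher than root by 2.38 (SE 0.12, adjusted p = 3.6e-15) in DMSO 30 min, where the leaf mean was 5.28 times the root mean, by 2.08 in DMSO 120 min and by 2.45 in tZ 30 min (adjusted p = 4.8e-14 and 2e-15). In tZ 120 min, as a description, the difference was 0.35 (SE 0.12), the leaf arrays still lying above the root arrays. These 4 comparisons called 60.1%, 61.5%, 62.6% and 61.0% of probe sets. Leaf and root are different mixtures of cells, and in such bulk samples fewer cells of a type and less RNA per cell cannot be told apart. The tZ effect of leaf minus that of root was 0.071 (SE 0.17, adjusted p = 0.805, 95% interval −0.27 to 0.41) at 30 min and was not called. At 120 min, as a description, it was −1.74 (SE 0.17, 95% interval −2.08 to −1.40). The 2 comparisons called 31.3% and 30.7%, with 13.4% lower at 120 min.

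The other 4 OsCHS1 probe sets were much dimmer, and 2 of them were tested. The second in brightness, of a type (x_at) that may also bind related transcripts, read 122.5 to 328.5 over the 24 arrays. In leaf it read 250.9, 307.4 and 243.5 in DMSO 120 min and 122.5, 216.8 and 203.5 in tZ 120 min, so those arrays did not overlap. It comes from the same RNA and arrays as the bright probe set, so its differences from leaf tZ 120 min are a description too. They were −0.54 (SE 0.18) against DMSO 120 min, −0.73 (SE 0.18) against tZ 30 min and −0.48 (SE 0.18) against DMSO 30 min, and −0.31, −0.50 and −0.25 without leaf tZ 120 min replicate 1, the lowest array. The change of its leaf tZ effect with time was −0.79 (SE 0.26). In the comparisons without that group it was not called: the tZ effect was 0.25 in leaf at 30 min (adjusted p = 0.308) and 0.027 and 0.059 in root at 30 and 120 min (adjusted p = 0.933 and 0.853). Unlike the bright probe set, it showed no called organ difference. Leaf minus root was 0.030, 0.31 and 0.25 in DMSO 30, DMSO 120 and tZ 30 min (adjusted p = 0.906, 0.159 and 0.264). In tZ 120 min, as a description, it was −0.29 (SE 0.19).

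The next, also of the x_at type, read 2.7 to 114.5. Leaf tZ minus DMSO was 0.42 at 30 min (SE 0.38, adjusted p = 0.415) and, as a description, −0.024 at 120 min (SE 0.38), and it was not called in root (−0.28 and −0.35, adjusted p = 0.788 and 0.740). Leaf minus root was not called in DMSO 30, DMSO 120 or tZ 30 min (−0.37, −0.083 and 0.33, adjusted p = 0.584, 0.908 and 0.625). The remaining pair were too dim to be tested in either organ. The brighter of them read 3.6 to 77.7, with leaf tZ 120 min arrays at 77.7, 47.5 and 63.8 and leaf DMSO 120 min arrays at 12.7, 70.8 and 19.0, which overlap. The dimmest read 3.9 to 37.3, with leaf tZ 30 min arrays at 37.3, 22.5 and 32.6 and leaf DMSO 30 min arrays at 3.9, 5.3 and 5.2, which do not overlap. Of the 5 OsCHS1 probe sets, then, the brightest pair read lower in leaf tZ 120 min than in leaf DMSO 120 min without overlap. In the other 3 these arrays overlapped. This is a description of the group OsCHS1 was chosen for, in a comparison that called 21.4% of all probe sets tested lower. The share of all probe sets without overlap was not computed. Of the 3 dimmer ones, which read near background, 2 were not tested.

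**Figure D3:**
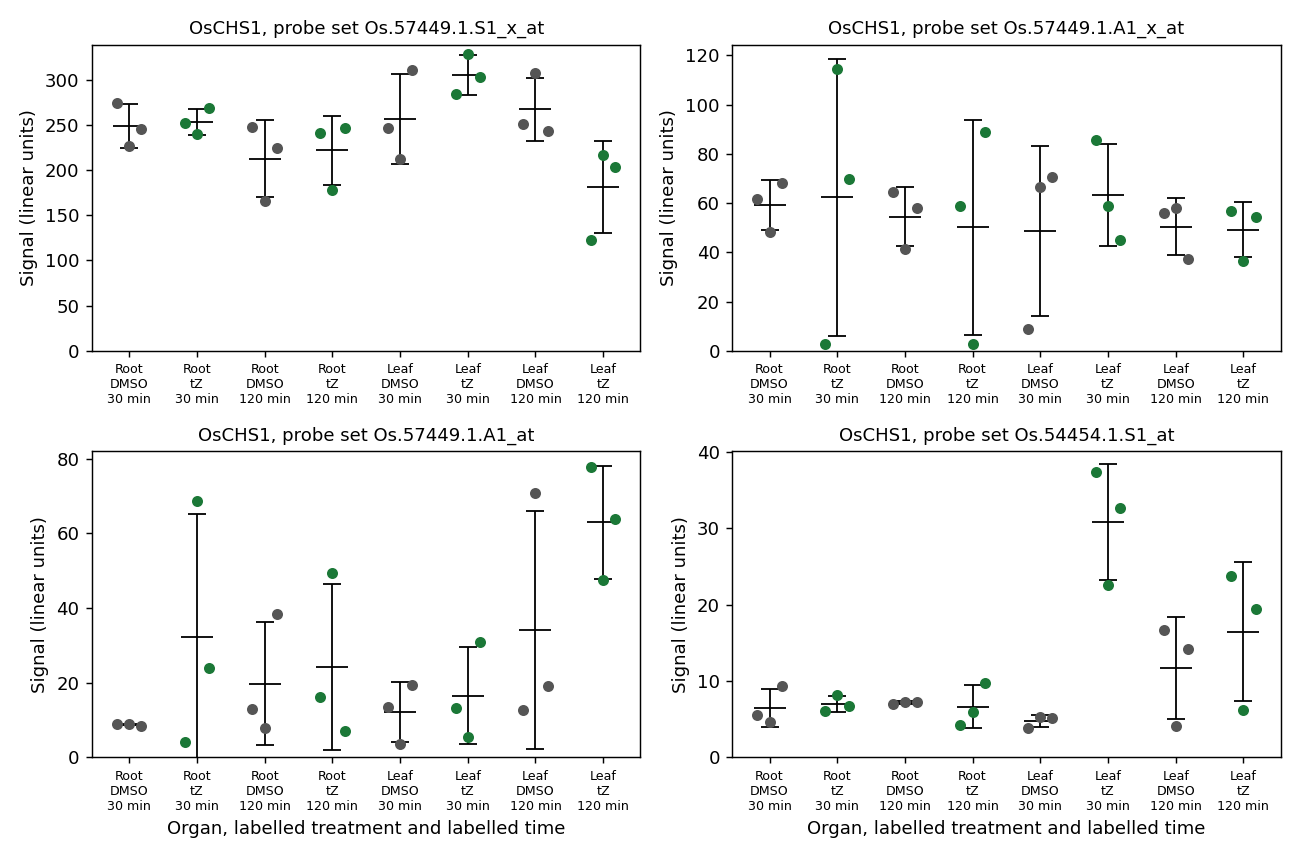
Signal of the other 4 OsCHS1 probe sets in each array (grey DMSO, green tZ, bars mean ± SD of 3; linear axes, each from 0 and with its own range, so that a bar reaching below 0 is cut there). In the top left panel the leaf tZ 120 min arrays, at 122.5 to 216.8, lie below the leaf DMSO 120 min arrays, and the 3 dimmer probe sets read at most 114.5 in any array.

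CHI was lower in tZ than in DMSO in both organs and at both times, by similar amounts. In leaf its probe set read 2251.0, 2199.5 and 2278.1 in DMSO 30 min against 1353.7, 1213.7 and 1318.2 in tZ 30 min. At 120 min leaf DMSO read 2408.4, 2321.2 and 2533.5, and leaf tZ read 1339.4, 1275.1 and 1531.3. The tZ arrays lay below the DMSO arrays at both times without overlap.

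In root DMSO 30 min read 2998.0, 2859.5 and 2737.1, and tZ 30 min read 2071.2, 1572.1 and 1785.4. Root DMSO 120 min read 3437.9, 3224.5 and 3332.4, and tZ 120 min read 2116.3, 2261.8 and 1859.8. Here too no tZ array reached a DMSO array of its time. The tZ mean was 63.2% and 62.4% of the DMSO mean in root at 30 and 120 min, and 57.7% and 57.1% in leaf.

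On the log2 scale CHI was lower by −0.66 (SE 0.095, adjusted p = 4.2e-05) and −0.68 (SE 0.095, adjusted p = 5e-05) in root, and by −0.78 (SE 0.070, adjusted p = 8.6e-08) and −0.80 (SE 0.070, adjusted p = 7.2e-08) in leaf. Those comparisons called 19.9%, 18.9%, 21.8% and 21.4% of probe sets lower. Of the 30501 probe sets tested in both organs, 1667 (5.47%) were called lower in all 4, as CHI was. A further 773 (2.53%) were called lower in leaf at 120 min and in none of the other 3. The bright OsCHS1 probe set, chosen with its leaf drop known, has that pattern, and nothing is read from it.

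Neither the time nor the organ comparison of the CHI effects passed the test. The effect at 120 minus 30 min was −0.014 in root (95% interval −0.30 to 0.27, adjusted p = 0.973) and −0.019 in leaf (−0.23 to 0.19, adjusted p = 0.967). The leaf effect minus the root effect was −0.12 at 30 min (−0.37 to 0.13, adjusted p = 0.526) and −0.12 at 120 min (−0.38 to 0.13, adjusted p = 0.502). CHI at 120 against 30 min did not pass within DMSO (0.22 in root, 0.11 in leaf) or within tZ (0.20 and 0.089), with adjusted p from 0.23 to 0.572. These comparisons called 6.23% and 1.4% of probe sets within DMSO (root and leaf) and 6.74% and 8.01% within tZ. The DMSO 120 min arrays lay above the DMSO 30 min arrays in both organs. The share of all probe sets that separate in this way was not computed, and nothing is read from it. In tZ 120 min against DMSO 30 min CHI was lower by −0.46 in root (SE 0.095, adjusted p = 0.0015; 17.7% called lower) and by −0.69 in leaf (SE 0.070, adjusted p = 3.7e-07; 22.2% called lower).

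Ordered by mean ± SD, CHI ran from root DMSO 120 min (3332 ± 107) and root DMSO 30 min (2865 ± 130) to leaf DMSO 120 min (2421 ± 107) and leaf DMSO 30 min (2243 ± 39.9). Then came root tZ 120 min (2079 ± 204), root tZ 30 min (1810 ± 250), leaf tZ 120 min (1382 ± 133) and leaf tZ 30 min (1295 ± 72.8). Neighbours from leaf DMSO 30 min to root tZ 30 min overlapped, as did the 2 leaf tZ groups. CHI was called lower in leaf than in root in all 4 groups, by −0.35, −0.46, −0.47 and −0.58 (DMSO 30, DMSO 120, tZ 30 and tZ 120 min), in comparisons that called 34.0%, 35.0%, 32.5% and 31.4% of probe sets lower, but with arrays shifted to the same median these became 0.049, 0.053, −0.079 and −0.24 and none passed. Across the 12 arrays of an organ the log2 values of OsCHS1 and CHI correlated at 0.40 in leaf and 0.0047 in root, a description over arrays that share their groups.

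Of the general phenylpropanoid list, 7 genes were measured, each by its brightest probe set: PAL and PAL06, which start the pathway, and Os4CL1 to Os4CL5, which activate p-coumarate. In leaf they were split in direction. At 30 min 3 of 7 were called higher and 3 lower (median −0.29, against 0.034 over all probe sets tested), and at 120 min 3 higher and 2 lower (median 0.21, against 0.026). In root 5 of 6 tested were called lower and 1 higher at 30 min (median −0.73, against −0.039), and 2 lower and 0 higher at 120 min (median −0.13, against −0.10). The 2 became 4 with quantile normalization. Over all probe sets 45.6% and 43.4% were called in leaf at 30 and 120 min, and 33.7% and 30.3% in root. In tZ 120 min against DMSO 30 min, 4 of 6 were lower in root (2 with arrays shifted to the same median), and in leaf 2 of 7 were higher and 2 lower, where 29.4% and 45.6% of all probe sets were called.

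The PAL genes were higher in leaf tZ where they passed. PAL06 had leaf tZ means of 902 and 1045 against leaf DMSO means of 285 and 314, a rise of 1.60 at 30 min and 1.68 at 120 min (SE 0.11, adjusted p = 3.5e-09 and 2.4e-09), and of 1.82 in tZ 120 min against DMSO 30 min. In root PAL06 fell at 30 min (−0.91, adjusted p = 5.6e-07) and was not called at 120 min (0.22, adjusted p = 0.075), but was lower in tZ 120 min against DMSO 30 min (−0.35, adjusted p = 0.0064). PAL rose in leaf at 30 min by 0.85 (adjusted p = 6.7e-07) but did not pass at 120 min (0.21, adjusted p = 0.07) or in tZ 120 against DMSO 30 min (−0.0064, adjusted p = 0.965). Its call in root at 30 min (0.27, adjusted p = 0.034) was the 1 higher call there. In root tZ 120 against DMSO 30 min it gave 0.13 (adjusted p = 0.356). The 30 min call was lost with no filter, with quantile normalization and with no intensity trend, and also without root DMSO 30 min replicate 1 or 2 or root tZ 30 min replicate 2 or 3. The PAL probe set used, 1 of 5, is of the x_at type. In root at 30 min the others of that type were called higher (0.20 and 0.29, adjusted p = 0.045 and 0.020). The rest were not called there (0.023 and 0.14, adjusted p = 0.878 and 0.231). The probe set at 0.023 was called higher in root at 120 min (0.24, adjusted p = 0.049). In leaf all PAL probe sets were called higher at 30 min and not called at 120 min.

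The 4CL genes moved in different directions. Os4CL2 read 196 to 232 in leaf DMSO 30 min arrays and 14.2 to 40.8 in leaf tZ 30 min arrays, and fell at both times (−2.32 and −2.15, adjusted p = 1.4e-06 and 3.7e-06). Os4CL4 fell in leaf (−0.72 and −0.91, SE 0.075, adjusted p = 5.6e-07 and 3.5e-08). Os4CL3 rose in leaf by 0.92 and 0.96 (adjusted p = 1.6e-07 and 1.1e-07), and fell in root at 30 min (−0.55, adjusted p = 2.1e-06). Os4CL5 fell in root from a mean of 9991 ± 588 to 1388 ± 184 at 30 min, and fell again in the comparison at 120 min (−2.84 and −1.15, adjusted p = 1.6e-08 and 0.0003). In leaf it fell at 30 min (−0.29, adjusted p = 0.00059) and rose at 120 min (0.39, adjusted p = 3.2e-05). Os4CL1 fell in root (−1.11 and −1.01, adjusted p = 1.4e-05 and 5.4e-05) and was not called in leaf (−0.33 and 0.10). The leaf differences of tZ 120 min from DMSO 30 min were −1.97 for Os4CL2, −0.93 for Os4CL4 and 0.82 for Os4CL3, each called, and −0.039 for Os4CL5 and 0.031 for Os4CL1, not called (adjusted p = 0.632 and 0.924). In root the same comparison called Os4CL5 (−1.62), Os4CL1 (−0.94) and Os4CL3 (−0.21) lower, and not Os4CL4 (−0.22, adjusted p = 0.08). The Os4CL5 differences in leaf thus had opposite signs in the comparisons at 30 and 120 min, and it was not called against DMSO 30 min.

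**Figure D4:**
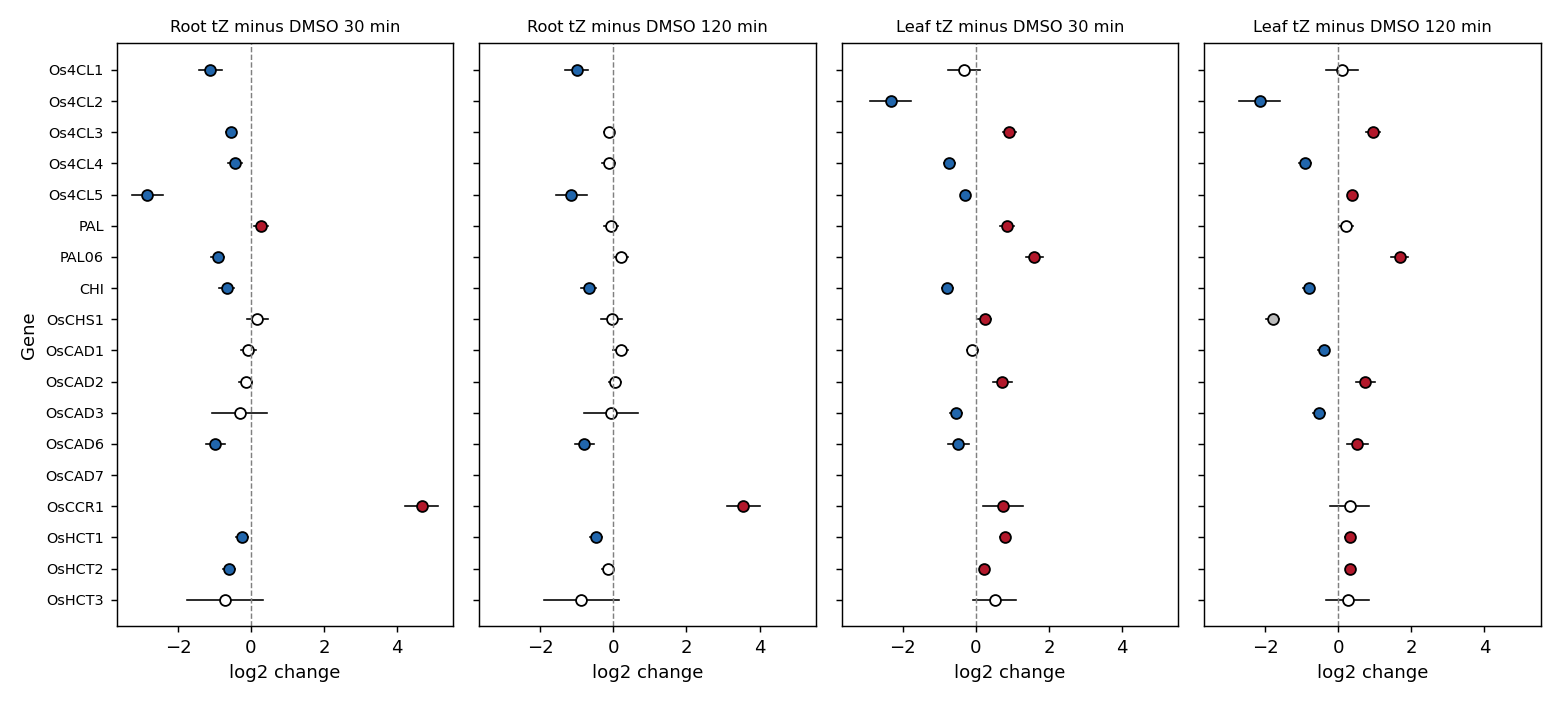
Difference of tZ minus DMSO, on the log2(signal + 20) scale with 95% intervals, for OsCHS1, CHI and the general phenylpropanoid and lignin branch genes measured, in each organ and at each labelled time. Red points were called higher, blue points lower, open points were not called, the grey point is the leaf OsCHS1 difference at 120 min given as a description, and a missing point was too dim to be tested. In leaf at 120 min CHI, OsCHS1, Os4CL2 and Os4CL4 lie below 0 while PAL06, Os4CL3 and Os4CL5, each called higher, lie above it. Of the lignin branch genes tested there, 4 were called higher and 2 lower.

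In the lignin branch 9 of 12 genes had a probe set and 8 were tested in each organ. In leaf 4 were called higher and 2 lower at each time (medians 0.37 and 0.31, against 0.034 and 0.026 over all probe sets, of which 45.6% and 43.4% were called). In root 1 was higher and 3 lower at 30 min, and 1 higher and 2 lower at 120 min (medians −0.28 and −0.11, against −0.039 and −0.10, with 33.7% and 30.3% called). In tZ 120 min against DMSO 30 min 1 was higher and 3 lower in root, and 3 higher and 2 lower in leaf, where the 2 became 1 under 4 other settings and without 1 of 3 arrays, with 29.4% and 45.6% of all probe sets called. The higher 1 in root was OsCCR1, a cinnamoyl-CoA reductase gene, with means of 64.8 in DMSO and 2096 in tZ at 30 min (4.67, adjusted p = 7.6e-11) and of 89.4 and 1236 at 120 min (3.56, adjusted p = 2.6e-09). In leaf, at dim signals, its tZ means were above its DMSO means, at 111.7 against 59.3 at 30 min and 88 against 66.9 at 120 min. The leaf arrays overlapped at both times. They read 84.3 to 135.5 in tZ and 42.3 to 85.4 in DMSO at 30 min, and 68.3 to 103.6 and 52.5 to 80.6 at 120 min. OsHCT1, of the hydroxycinnamoyl transferase family at the branch to lignin, rose in leaf by 0.81 and 0.31 (adjusted p = 2.5e-08 and 0.00084) and fell in root (−0.24 and −0.47, adjusted p = 0.027 and 0.00026). Of the alcohol dehydrogenase genes of lignin synthesis, OsCAD2 rose in leaf by 0.72 and 0.75 (adjusted p = 0.00012 and 9.9e-05), whereas OsCAD3 fell there (−0.54 and −0.52, adjusted p = 1.4e-05 and 2.3e-05). OsCAD1 fell in leaf at 120 min (−0.40, adjusted p = 0.00013). OsCAD6 had root means of 1530 in DMSO and 763 in tZ at 30 min, and of 1313 and 755 at 120 min. Its leaf means were 302 and 213 at 30 min, and 251 and 369 at 120 min. OsHCT2 had leaf means of 2635 in DMSO and 3080 in tZ at 30 min, and of 2565 and 3225 at 120 min. Its root means were 11217 and 7401, then 9920 and 8905. Against DMSO 30 min, in tZ 120 min, OsCCR1 was 3.91 higher in root and not called in leaf (0.47, adjusted p = 0.155), and OsHCT1 was called lower in root (−0.42) and higher in leaf (0.39). The leaf differences of OsCAD2 (0.76), OsCAD3 (−0.65) and OsCAD1 (−0.19, adjusted p = 0.0364) were called in it too. The dimmer probe set of OsHCT3 was called lower in root at both times where its brighter one was not.

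Of the regulators listed, PHYB1, a phytochrome B light receptor gene, was the 1 measured. It fell in root (−0.48 and −0.42, adjusted p = 0.0036 and 0.01) and rose in leaf by 0.47 and 0.34 (adjusted p = 6e-07 and 2.4e-05). Between tZ 120 min and DMSO 30 min it was 0.55 higher in leaf (adjusted p = 9.5e-08) and was not called in root (−0.30, adjusted p = 0.059). The list of flavonoid pathway names added OsCHS2 to the genes above, and it had no probe set.

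The genes whose leaf pattern was most like that of OsCHS1, by Pearson r of log2 values over the 12 leaf arrays among 2708 named probe sets, were OsHox6 (0.952), CYP71Z7 (0.944), AC2 (0.926), XBOS33 (0.906) and OsChia2b (0.904). OsHox6, a homeodomain-leucine zipper gene, read 745 to 819 as the means of the other leaf groups and 462 in leaf tZ 120 min. CYP71Z7, a cytochrome P450 gene, read 2089 to 2288 and 1533 in the same order. Both had their lowest mean in the leaf group where OsCHS1 was lowest, with a smaller drop. They were picked by likeness over these same arrays, so the shared lowest group follows from the choice.

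For CHI in leaf they were PRXIIC (0.991), OsNPR3 (0.988), OsGT43E (0.986), OsPSY1 (0.984) and PSB28 (0.983). OsPSY1, a phytoene synthase gene of carotenoid synthesis, had means of 1464 in DMSO 30 min and 633 in tZ 30 min. In root, among 2751 named probe sets, those most like CHI were KRP1 (0.989), OsC3H11 (0.979), catA (0.978), DXPS (0.977) and ARF16 (0.975). KRP1, a cyclin-dependent kinase inhibitor gene, had means of 885 and 392 in root DMSO and tZ 30 min. Those most like OsCHS1 in root were PRMT7 (0.834), OsGDH1 (0.819), LTP2-B (0.763), ML2 (0.761) and OsPMM (0.758), so its likeness values were lower there, where its own range was narrow. These correlations are over arrays that share 4 groups of 3 and describe the patterns only.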

How the data were processed

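Transcript levels of 2 rice organs were measured on 24 one-colour arrays. RNA extracted on columns was turned into biotin-labelled cRNA, per the labels' protocols. What was deposited is intensity processed by the authors, on a linear scale; how probes were summarised and background was treated, and the genome build, is not given in the sources used here. After trimming 2% at each end, every array's mean was 500.07 or 500.08, so the intensity had been scaled by the authors to a common trimmed mean.

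From the 57381 probe sets, 187 controls were left out. Values were taken as log2(signal + 20), which understates changes of dim probe sets, with no further normalization. A probe set was tested in an organ where its mean log2 value exceeded the 40th percentile of all probe sets. That gave 34316 tested per organ and 38131 in at least 1. For the 6 members, 4 passed in each organ. Tests used limma 3.58.1 under R 4.3.3 (lmFit, eBayes with an intensity trend, two-sided), the 12 arrays of an organ in 1 fit and all 24 arrays for comparisons between organs. P-values were adjusted by Benjamini-Hochberg over all probe sets tested, and "called" means an adjusted p under 0.05. All adjusted p-values are from these fits, and the script was tested on simulated data. The labels do not state separate cultures behind the 3 replicates, so p-values rest only on the spread between arrays, which may be technical. The number of arrays limits the precision.

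Probe sets were named from the array annotation and, with RefSeq's table for assembly ASM3414082v1, by gene ID; no coordinates were taken from it. Exactly 1 gene was attached to 22436 probe sets, several to 95 and none to 34663, and all 17905 genes matched. The members, the pathway lists and the tests were chosen with earlier results of these data known. All members are described. Pathway genes were named if called in leaf at 120 min or among those with the largest change in a tZ comparison; not all of these are described. Likeness was to be taken for the brightest member, which is CHI over all arrays and OsCHS1 in leaf, so it is given for both. The extraction and labelling fields of 1 sample, root DMSO 30 min replicate 2, appear shifted in the labels, and the protocol text of root tZ 30 min names both times; titles were followed. Alternatives changed the pseudocount (5 or 64), filter, scaling (quantile, or equal medians), replicate block, intensity trend, arrays in the fit and each replicate in turn.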

Additional observations from a re-analysis of the deposited data

Results flagged for a closer look

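Both results here were marked because the tZ effect on OsCHS1 differed between times or organs in an interaction term of the fit. In leaf the effect at 120 min minus that at 30 min was −2.04 (SE 0.12), with the 3 arrays of tZ 30 min all above and the 3 of tZ 120 min all below the DMSO arrays of their time. At 120 min the leaf effect minus the root effect was −1.74 (SE 0.17), with root tZ and DMSO arrays overlapping. OsCHS1 was singled out with the leaf drop known, so neither is independent evidence. Groups of 3 arrays are too small for the search for outlying samples.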

How the results depend on the processing

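For 41 results, 630 alternatives were computed, of which 584 kept direction and side of the threshold. The 41 include the OsCHS1 differences that involve leaf tZ 120 min, which are descriptions, so the total is no measure of support. The leaf difference of OsCHS1 at 120 min, a description, ranged from −1.85 to −1.72 over 15 alternatives, and CHI was called lower in each tZ comparison under all 15 alternatives of each, at −0.77 to −0.57 (root) and −0.88 to −0.74 (leaf). Under equal array medians, leaf minus root CHI became 0.049, 0.053, −0.079 and −0.24, the root CHI change of effect with time 0.12, OsCHS1 in root at 120 min 0.062, OsCHS1 in leaf at 30 min 0.21, and the leaf minus root effect of the second OsCHS1 probe set at 120 min −0.78. That scaling moved the median of all probe sets by 0.34 to 0.51 between organs, 0.11 in root at 120 min, 0.14 in the root change of effect and 0.17 in the organ difference of effects at 120 min. With quantile normalization OsCHS1 in root at 120 min was 0.047, its root tZ 120 against DMSO 30 min difference 0.44 (passed), its leaf minus root level in tZ 120 min 0.26, its leaf minus root effect at 30 min −0.058, and that of the second OsCHS1 probe set at 120 min −0.72. In 1 fit of 24 arrays, OsCHS1 in root DMSO over time (0.38) and in root tZ 120 against DMSO 30 min (0.32) passed, and leaf at 30 min (0.25) did not. With no intensity trend the leaf 30 min call of OsCHS1 (0.25) was lost. The leaf tZ 120 min differences of the second OsCHS1 probe set, a description, were −0.73 against tZ 30 min with no trend, and −0.48 against DMSO 30 min with no trend or no filter.

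Leaving out 1 array at a time gave these ranges: the CHI change of effect with time −0.11 to 0.087 in root and −0.094 to 0.036 in leaf; for OsCHS1, root 120 min −0.11 to 0.032, root tZ 120 against DMSO 30 min 0.15 to 0.45, leaf 30 min 0.17 to 0.32, leaf minus root in tZ 120 min 0.28 to 0.42, and leaf minus root effect at 30 min −0.052 to 0.25. For the second OsCHS1 probe set they were −0.68 to −0.31 (leaf 120 min), −0.86 to −0.50 (against tZ 30 min), −0.62 to −0.25 (against DMSO 30 min) and −0.74 to −0.37 (leaf minus root effect at 120 min). The causes were not tested. Counts of all probe sets called moved by over 1.5 times in the time comparisons: root DMSO 2137 to 850 with no trend and 1203 to 1362 without 1 array, root tZ 2312 to 1232 and 1397 to 1438, leaf tZ 2749 to 1819 (no trend) and 1705 (24 arrays), and leaf DMSO 481 to between 61 (no trend) and 315 (no filter). The root change of effect went from 1578 to 403 (no trend), 2389 (24 arrays) and 848 to 1042 (without 1 array), and the leaf one from 1316 to 800 (equal medians), 678 (no trend) and 723 (24 arrays). Among the pathway counts, the 1 higher general phenylpropanoid gene in root at 30 min became 0 under 3 settings and without 1 of 4 arrays, 0 higher at 120 min became 1 and 1 higher lignin gene became 2 without root DMSO 120 min replicate 1, and 2 lower lignin genes in leaf became 1 in the fit of 24 arrays at both times and without leaf tZ 30 min replicate 1 at 30 min.

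The replicate numbers did not pair the tZ and DMSO arrays of the same organ and time: deviations of same-numbered arrays correlated at −0.055 to 0.029 over 12 pairs, none above 0.1. Same-numbered arrays of different organs or times were not compared. The replicate block changed no call of the results above and moved the leaf DMSO time count from 481 to 299. Signals near background and 3 arrays per group limit what the 3 dimmest OsCHS1 probe sets can show.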
